A study of Sus scrofa with 48 samples.

Results

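Whole blood of low RFI and high RFI pigs that had all been fed the HF diet was compared here, with 12 pigs per line, so that 24 of the 48 pigs of the experiment entered the contrast. The members were chosen by the strain and feed condition given in the sample labels (RFIneg or RFIpl, HF), and no pig fed the LF diet was included. Residual feed intake (RFI) is a measure of feed efficiency, and a low RFI means that a pig eats less than its weight gain and body size would require on average. All animals were purebred French Large White castrated males of the eighth generation of a divergent selection on RFI, aged 132 days at slaughter, when the blood was taken. The other 24 pigs had received a low-fat, low-fiber (LF) diet based on cereals, whereas the high-fat, high-fiber (HF) diet held less cereal and drew its additional fat from plant oils and its additional fiber from straw. Each line comes from 1 selection experiment, so that an effect of selection and a chance difference between the lines cannot be told apart.

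Whole blood RNA is a mixture of the RNA of neutrophils, monocytes, lymphocytes, platelets and immature red cells. Neutrophils and monocytes respond to microbes through Toll-like receptors and their adaptors, lymphocytes carry the receptors of adaptive immunity, and the ribosomal proteins, initiation factors and mitochondrial proteins of all these cells set their protein synthesis and energy supply. A level measured in whole blood changes with the number of cells of a type and with the RNA that each cell holds, and these cannot be told apart from the arrays alone. The study also counted blood cells of these pigs at slaughter, and the counts were not used here. Over both diets it reported no significant line effect on neutrophil, lymphocyte or monocyte numbers, and more red cells in low RFI pigs. RNA of each pig was hybridized on 1 single-colour array of 60-base probes, and values are log2 intensities with the median of each array at 0. A level of 1 therefore means an intensity 2 times that of the median probe of the array, and levels of different probes are not compared. Fold change (FC) is the low RFI to high RFI ratio, written as its negative inverse when expression was lower in low RFI pigs.

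The arrays gave similar signals in both lines. The number of spots well above background lay between 41182 and 45305 in low RFI pigs (median 43086.5) and between 41443 and 46645 in high RFI pigs (median 43231). Each of the 6 slides held 2 pigs of each group, so that line was balanced over slides and over the 3 scan days. Of the genes that mark blood cells, 22 of 23 erythroid genes, 16 of 18 neutrophil genes, 20 of 21 T cell genes and 21 of 21 B cell genes were well above background on all 24 arrays. The same was the case for 11 of the 13 measured genes that mark keratinocytes, liver, muscle, fat and other tissues, so that this call of the scanner does not separate blood from other cells.

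In total, 59 of 10099 genes were differentially expressed (DE) between low and high RFI pigs fed the HF diet at an adjusted P-value under 0.05 (0.584% of the genes tested, limma with Benjamini-Hochberg correction). Expression was higher in low RFI pigs for 34 of them (0.337%) and lower for 25 (0.248%). With 1 pig left out, 24 to 42 genes were higher and 14 to 41 lower; the lower count was 14 without high RFI replicate 2 or low RFI replicate 10, and it exceeded the higher count without low RFI replicate 3 (41 lower and 31 higher) or low RFI replicate 11 (33 and 32). The largest differences were in genes of unlike function. OAZ3 and SERPINF1 were among 3 underexpressed genes with an FC beyond -2, and TRAF6, EIF1B, FGF11 and CD300C were overexpressed with an FC above 2. An FC of at least 1.5 was reached by 11 overexpressed and 16 underexpressed genes. In no gene were the 12 values of one line entirely apart from the 12 of the other (0.0% of the genes tested). In 58 of the 59 genes, which were selected for their difference, at least 11 of the 12 low RFI pigs lay beyond the median of the high RFI pigs (5.74% of all genes). At probe level, 221 of 37113 probes were DE at an adjusted P-value under 0.05 (0.595%), 126 overexpressed and 95 underexpressed. With 1 pig left out 87 to 128 probes were higher and 51 to 131 lower, the lower ones being in the majority without low RFI replicate 3 (131 and 113) or low RFI replicate 8 (116 and 112). Of the DE probes 100 had no gene symbol, and the others belonged to 81 genes. At the criterion of the study (P-value under 0.01 and FC above 1.1), 1190 probes were DE (3.21%), 615 of them overexpressed and 575 underexpressed. The majority turned to the lower side with some pigs left out, for instance 694 lower and 527 higher without low RFI replicate 3.

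**Figure D1:**
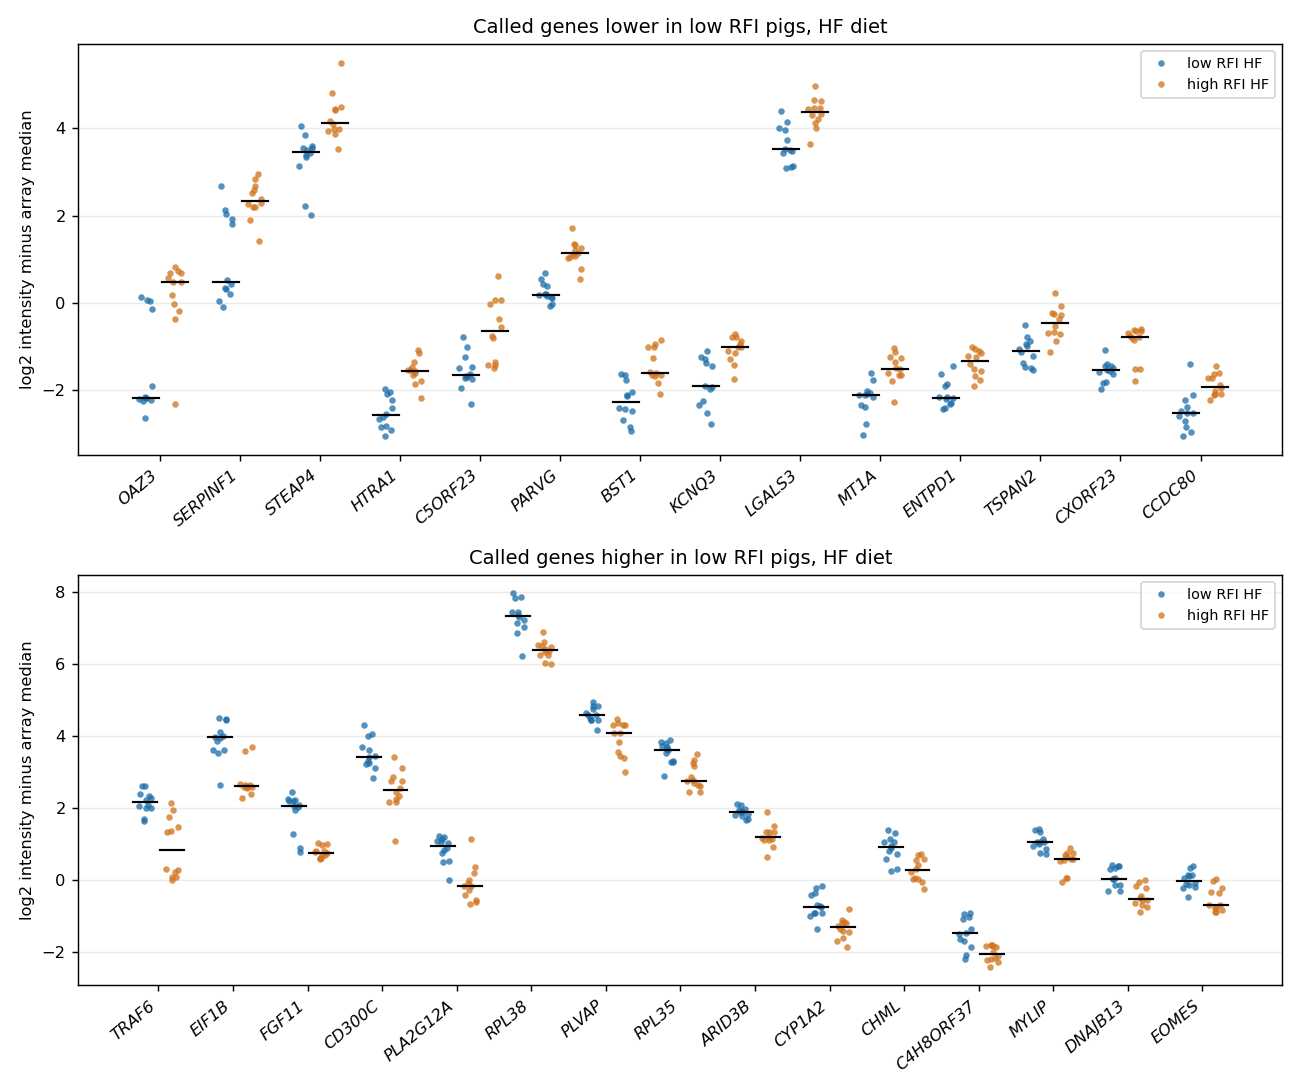
Level of each of the 24 pigs fed the HF diet for 14 underexpressed (top) and 15 overexpressed (bottom) DE genes with large log2 fold changes, as log2 intensity minus the array median. Each point is 1 pig, blue for low RFI and orange for high RFI, and black lines are medians of 12 pigs; in SERPINF1 the low RFI pigs and in TRAF6 the high RFI pigs are spread over 2 separate levels, in OAZ3 both lines are, whereas PARVG and ARID3B have compact groups.

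OAZ3, an antizyme that limits the synthesis of polyamines, had the largest decrease among the DE genes. Its levels were -2.62, -2.17 and 0.13 (lowest, median and highest) in low RFI pigs and -2.32, 0.48 and 0.83 in high RFI pigs. The difference was -1.61 ± 0.38 on the log2 scale (SE, n = 12 per line, FC = -3.06, limma adjusted P = 0.0471). The call was near the threshold and was kept under 7 of 13 alternative settings, being lost for instance with scan day as a block (limma adjusted P = 0.0517) and with the brightest probe (0.0573). Both probes with differences of -1.99 and -1.96 have the same 60 bases, and the other probe of the gene differed by -0.89. The pigs fell into 2 sets with nothing between -1.90 and -0.36. The lower set held 8 low RFI pigs and 1 high RFI pig, and the upper set 4 low RFI and 11 high RFI pigs. The counts of pigs below and above the same bounds were again 8 and 4 for low RFI and 1 and 11 for high RFI among the pigs fed the LF diet.

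Of the DE genes, SERPINF1, HTRA1 and WFDC2 belong to the list of protease inhibitors and secreted proteases. SERPINF1, a secreted member of the serpin family, had levels of -0.10, 0.49 and 2.68 in low RFI pigs and 1.41, 2.34 and 2.94 in high RFI pigs, a difference of -1.32 ± 0.29 (FC = -2.5, limma adjusted P = 0.0319, and 0.0882 with the replicate block). Here 7 low RFI pigs lay at or below 0.53 and the other 5 low RFI pigs lay with all 12 high RFI pigs at 1.41 or above. Among low RFI pigs fed the LF diet, 4 lay below and 4 above these bounds, and the remaining pigs lay between them. HTRA1, a secreted serine protease, had levels of -3.04, -2.57 and -1.97 in low RFI pigs and -2.18, -1.55 and -1.09 in high RFI pigs. It was underexpressed by both of its probes (-0.95 ± 0.13, FC = -1.93, limma adjusted P = 0.000589), and all 12 low RFI pigs were below the high RFI median. With the background-corrected signal its difference was -1.83.

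WFDC2, a small secreted protein with the fold of protease inhibitors, was overexpressed, with levels of 4.62, 5.01 and 5.51 in low RFI pigs and 4.11, 4.5 and 4.75 in high RFI pigs. The difference was 0.50 ± 0.10 (FC = 1.41, limma adjusted P = 0.0165), but it came from 2 of its 4 probes. These differed by 1.11 ± 0.22 and 1.01 ± 0.20, and the other 2 probes by -0.10 ± 0.15 and -0.03 ± 0.13 (limma adjusted P = 0.989 and 0.991). The first probe of each kind share a run of 51 of their 60 bases. To show which stretches of the transcript such probes read, 30 of the 60 bases are given here 5′ to 3′, with the bases of the shared run in capitals. The 2 windows show opposite ends of that run, so that their capitals are different bases of it.
A_72_P054911 (1.11, bases 31 to 60): CTTCTTTTACCAACCAATAAAgtgatcact
A_72_P146751 (-0.10, bases 1 to 30): ttctggcctCTGCGCTTGCTCCTGAGCTGA
With the brightest probe alone, the difference of WFDC2 was -0.031 (limma adjusted P = 0.978). In the list of 30 measured protease inhibitors and secreted proteases, 1 gene was overexpressed and 2 were underexpressed at the adjusted threshold (0.584% of all genes), and the median difference was -0.04, against 0.01 over all genes.

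The other underexpressed genes with large differences have unlike functions. PARVG, a parvin of blood cells that links integrins to actin, had the lowest adjusted P-value. Its levels were -0.06, 0.19 and 0.68 in low RFI pigs and 0.55, 1.14 and 1.72 in high RFI pigs, a difference of -0.89 ± 0.10 (FC = -1.85, limma adjusted P = 6.34e-05), and the lines overlapped only between 0.55 and 0.68. BST1, the ectoenzyme CD157 of myeloid cells, had levels of -2.93, -2.27 and -1.63 against -2.07, -1.59 and -0.84, and a difference of -0.83 ± 0.16 (limma adjusted P = 0.014). STEAP4, a metalloreductase, differed by -0.96 ± 0.21 (limma adjusted P = 0.0326), with 2 low RFI pigs at 2.02 and 2.22 and the other 10 at 3.14 or above. CCDC80, a secreted matrix protein, differed by -0.61 ± 0.14 (-0.22 and not DE with all non-control probes, limma adjusted P = 0.477) and KCNQ3, a potassium channel subunit, by -0.78 ± 0.17. The single probes of C5ORF23 and CXORF23 had differences of -0.94 ± 0.22 and -0.62 ± 0.13. The call of C5ORF23 was kept under only 3 of 13 alternative settings and was lost with slide, scan day or replicate number as a block (limma adjusted P = 0.0861, 0.0592 and 0.0785), and that of CXORF23 was lost with the replicate block (0.0536). For CCDC80, KCNQ3, C5ORF23 and CXORF23 the limma adjusted P-values were between 0.0232 and 0.0482, and the other 10 underexpressed genes had differences between -0.60 and -0.25.

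LGALS3, ENTPD1, TSPAN2 and MT1A were underexpressed under the HF diet and had small line differences under the LF diet. LGALS3 codes for galectin-3, a sugar-binding protein of macrophages. Its levels were 3.08, 3.52 and 4.39 in low RFI pigs and 3.65, 4.38 and 4.98 in high RFI pigs, a difference of -0.73 ± 0.15 (FC = -1.66, limma adjusted P = 0.0168) that all of its 8 probes gave (-0.75 to -0.70). In pigs fed the LF diet the difference was 0.07 ± 0.20. ENTPD1 is CD39, an enzyme that breaks down extracellular ATP. Low RFI pigs had levels of -2.43, -2.17 and -1.44 and high RFI pigs -1.89, -1.32 and -1.01, which gave a difference of -0.70 ± 0.12 (FC = -1.62, limma adjusted P = 0.00308) against -0.04 ± 0.21 under the LF diet. The ENTPD1 probes with HF differences of -0.83 and -0.94 share a run of 54 bases. The other ENTPD1 probe differed by -0.33 ± 0.09 and was not DE (limma adjusted P = 0.115). For the tetraspanin TSPAN2 the differences were -0.65 ± 0.14 (limma adjusted P = 0.022) and -0.08 ± 0.17 under the HF and LF diets, and for the metal-binding protein MT1A -0.71 ± 0.14 (limma adjusted P = 0.0165) and -0.23 ± 0.14. Of the 2 probes of TSPAN2, 1 was DE. A test of the difference between the diets itself gave unadjusted P-values of 0.00375, 0.0108, 0.0141 and 0.0246 for LGALS3, ENTPD1, TSPAN2 and MT1A, and none of them passed the correction over all genes (limma adjusted P = 0.876 was the lowest of any gene). The line effect of these genes was therefore not shown to depend on the diet.

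Probes of LGALS3 and MT1A are shown because they bear on how far a value rests on 1 stretch of a transcript. Of the LGALS3 probes, 5 share runs of at least 25 bases with each other, and the following 3, which share none with them, gave similar differences, the first 2 sharing a run of 29 bases (capitals).
A_72_P581447 (-0.75, bases 22 to 51): gctcacttgTGCAGTACAATCATCGGATGA
A_72_P586226 (-0.74, bases 23 to 52): ctcacttgtTGCAGTACAATCATCGGATGA
A_72_P641919 (-0.71, bases 1 to 30): aaggaagagagacagatggtttttccattt
In MT1A, 2 probes with a shared run of 30 bases were DE and the other was not (limma adjusted P = 0.00247, 0.00663 and 0.989).
A_72_P079681 (-1.03, bases 22 to 51): ctttttctgTGAAATATGTGAGTTGTAATA
A_72_P744498 (-0.93, bases 21 to 50): cctttttctTGAAATATGTGAGTTGTAATA
O4231 (-0.15, bases 1 to 30): ctcgattgctacattcccttcctatgaaat

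**Figure D2:**
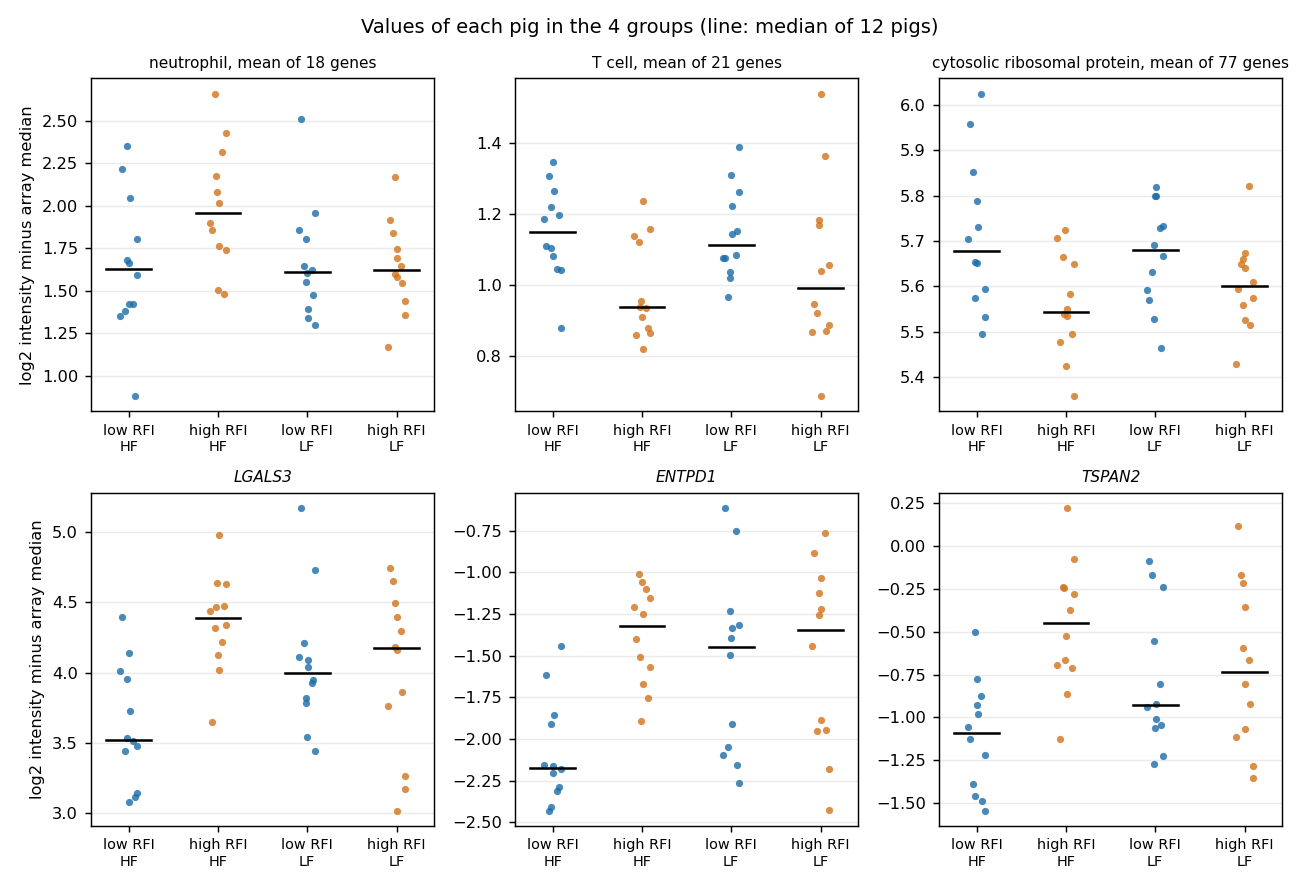
Values of each of the 48 pigs in the 4 groups of line and diet, as log2 intensity minus the array median, for the mean of the measured neutrophil, T cell and cytosolic ribosomal protein genes (top) and for LGALS3, ENTPD1 and TSPAN2 (bottom). Each point is 1 pig and black lines are medians of 12 pigs; for the 3 genes the medians of the lines are farther apart under the HF diet (3.52 and 4.38 for LGALS3) than under the LF diet.

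TRAF6, overexpressed with an FC above 2, is an adaptor and ubiquitin ligase that relays signals of Toll-like and interleukin-1 receptors. Its levels were 1.65, 2.16 and 2.63 in low RFI pigs and 0.01, 0.84 and 2.14 in high RFI pigs, a difference of 1.24 ± 0.24 (FC = 2.36, limma adjusted P = 0.0116) from 1 probe. With all non-control probes it was 0.61 (limma adjusted P = 0.0375). The high RFI pigs were split, with 6 at or below 0.33 and 6 at 1.35 or above, and all 12 low RFI pigs were in the upper set. CD300C, a receptor of myeloid cells, had levels of 2.85, 3.43 and 4.30 in low RFI pigs and 1.09, 2.5 and 3.43 in high RFI pigs. It was overexpressed by 1.03 ± 0.20 under the HF diet (FC = 2.04, limma adjusted P = 0.0116) and differed by 0.41 ± 0.15 under the LF diet, with an unadjusted P-value of 0.02 for the difference between diets.

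Of the genes of protein synthesis, EIF1B, a factor in the choice of the start codon, was overexpressed by 1.16 ± 0.19 (FC = 2.23, limma adjusted P = 0.00141). Its levels were 2.64, 3.97 and 4.51 in low RFI pigs and 2.28, 2.61 and 3.71 in high RFI pigs. All but 1 low RFI pig were at 3.54 or above, together with 2 high RFI pigs, and the remaining 10 high RFI pigs were at 2.67 or below. Each of the 8 probes was DE, with differences from 1.1 to 1.29, and the following pair shares no run of 25 bases.
A_72_P302699 (1.29, bases 1 to 30): ggtatgtaggctagtaacacataagaaaat
A_72_P599733 (1.15, bases 1 to 30): ctccgcagtaaatggacttttcatttattt
In the list of 57 translation factors, EIF1B was the only gene that passed the test (0.584% of all genes did), and the median difference was 0.08, against 0.01 over all genes.

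RPL38, RPL35 and RPL14, proteins of the large ribosomal subunit, were overexpressed by 0.93 ± 0.15, 0.67 ± 0.13 and 0.52 ± 0.10 (limma adjusted P = 0.00141, 0.0121 and 0.0116). The level of RPL38 was 6.23, 7.34 and 7.96 in low RFI pigs and 5.99, 6.39 and 6.89 in high RFI pigs. Its probes differed, one giving 1.85 ± 0.27 (limma adjusted P = 0.000926) and the other 0.01 ± 0.09 (limma adjusted P = 0.995). They share no run of 25 bases.
A_72_P016041 (1.85, bases 1 to 30): tggttgcctcaaaatcctgggctgtgatcc
O12413 (0.01, bases 1 to 30): ttcaaagttcgatgcagcagatacctgtac
In RPL35, 2 overlapping probes differed by 0.93 and 0.91 and the other by 0.16 ± 0.09 (limma adjusted P = 0.675). With the brightest probe alone, RPL38 and RPL35 differed by 0.01 and 0.16 and were no longer DE. In RPL14, 5 of 7 probes were DE and all 7 differed by 0.44 to 0.70.

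**Figure D3:**
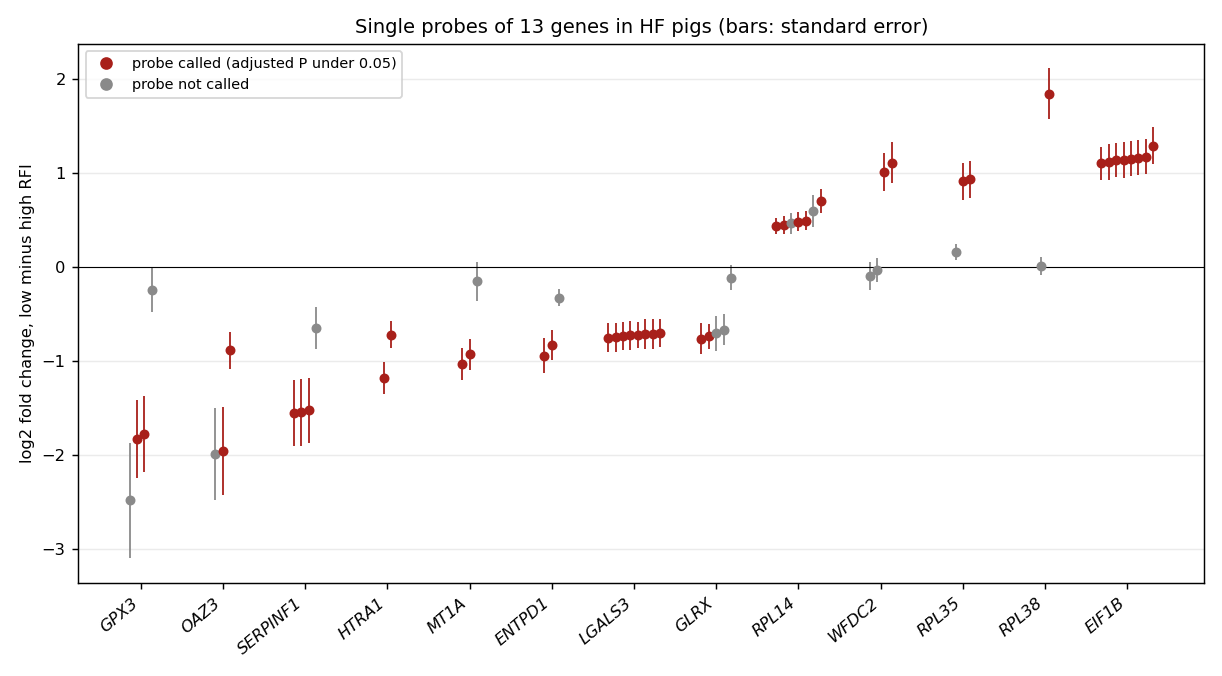
Difference between low and high RFI pigs fed the HF diet for each probe of selected named genes with more than 1 probe, as log2 fold change with its standard error (bars, n = 12 per line). Red points are probes with an adjusted P-value under 0.05 and grey points are other probes; the 8 probes of LGALS3 and of EIF1B lie together, whereas WFDC2, RPL38 and MT1A have probes near 0 beside probes with large differences.

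The remaining overexpressed genes with large differences were measured by few probes. FGF11, an intracellular member of the FGF family, had levels of 0.78, 2.08 and 2.46 in low RFI pigs and 0.60, 0.77 and 1.03 in high RFI pigs (1.09 ± 0.16, FC = 2.12, limma adjusted P = 0.000664). Of the low RFI pigs, 9 were at 1.96 or above, where no high RFI pig was found. PLA2G12A, a secreted phospholipase A2, differed by 0.95 ± 0.17 (limma adjusted P = 0.00501), and ARID3B, a DNA-binding protein, by 0.65 ± 0.10 (limma adjusted P = 0.000664) with levels of 1.68 to 2.11 in low RFI and 0.66 to 1.91 in high RFI pigs. The differences of PLVAP, a protein of endothelial diaphragms, CYP1A2, a cytochrome P450, CHML, a Rab escort protein, and C4H8ORF37 were 0.67 ± 0.14, 0.64 ± 0.12, 0.60 ± 0.13 and 0.56 ± 0.13, with limma adjusted P-values between 0.0138 and 0.0482. MYLIP, a ubiquitin ligase that directs the LDL receptor to degradation, had levels of 0.73, 1.05 and 1.44 in low RFI pigs and -0.04, 0.58 and 0.89 in high RFI pigs. Its difference was 0.56 ± 0.11 (limma adjusted P = 0.0121) under the HF diet and 0.12 ± 0.10 under the LF diet. DNAJB13, a J protein, and EOMES, a transcription factor of NK and cytotoxic T cells, differed by 0.54 ± 0.11 and 0.53 ± 0.12 (limma adjusted P = 0.0168 and 0.0296). The other 19 overexpressed genes had differences between 0.27 and 0.52.

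Probes without a gene symbol had differences as large as those of the named genes. The 3 largest increases were 1.55 ± 0.23, 1.46 ± 0.21 and 1.32 ± 0.27 (limma adjusted P = 0.00122, 0.000926 and 0.0165), and all 12 low RFI pigs were above the high RFI median at each of them. Under the LF diet they differed by 0.24, 0.93 and 0.38.
A_72_P010271 (1.55, bases 1 to 30): tgcagagaagaatgcactttgccagaaatg
A_72_P418364 (1.46, bases 1 to 30): atgttgacaatgtgtgtgtgtatatgtatg
A_72_P262452 (1.32, bases 1 to 30): accgctgttgcactgcttttgtctttctat
Of the 3 largest decreases, 2 probes differed by -1.90 ± 0.43 and -1.66 ± 0.38, and by -2.07 and -1.95 under the LF diet. The largest decrease, -2.02 ± 0.46 (limma adjusted P = 0.0364, -2.11 under the LF diet), was at a probe that the array files call GPX3 and that has the same 60 bases as a probe filed under CAPNS1. It shares a run of 24 bases (capitals) with a GPX3 probe that differed by -1.78 ± 0.41 (limma adjusted P = 0.0374).
A_72_P036051 (bases 4 to 33): AAAAAACCAGTTCTAGATTCAattggtctg
A_72_P440086 (bases 1 to 30): aaAGGAAAAAACCAGTTCTAGATTCAgttg

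Genes measured by qPCR as well had been selected on these pigs, so that their direction is no independent evidence. On the array 7 of these 8 genes have a symbol. OAZ3 and TRAF6 were DE as given above. GPX3, a secreted glutathione peroxidase, missed the threshold, with levels of -1.4, 0.16 and 2.32 in low RFI pigs and 0.58, 1.62 and 3.12 in high RFI pigs (-1.58 ± 0.39, FC = -3.0, limma adjusted P = 0.0503). Of its 4 probes 2 were DE, and the probe with the smallest value differed by -0.24 ± 0.23. DGAT2, an enzyme of triglyceride synthesis, differed by -0.65 ± 0.19 (limma adjusted P = 0.149) and SLPI, an inhibitor of leukocyte proteases, by 0.87 ± 0.33 (limma adjusted P = 0.32), with SDs of 0.87 and 0.86 within the lines. CD40, a receptor of B cells and monocytes, differed by -0.20 ± 0.12 (limma adjusted P = 0.625).

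Marker genes of neutrophils had lower values in low RFI pigs fed the HF diet, and genes of T cells and of ribosomes higher values, each by small amounts. Of 18 neutrophil genes, 15 had a lower mean in the low RFI line, as had 4637 of all 10099 genes. The median difference of the 18 neutrophil genes was -0.37, against 0.01 over all genes. None was DE at the adjusted threshold. Without the correction 11 were lower and 0 higher (P-value under 0.05), a level that 999 genes of the array reached (9.89%). They include the chemokine receptors CXCR1 and CXCR2 (-0.46 and -0.58), CLEC5A (-0.34 ± 0.09, limma adjusted P = 0.0764), VNN2 (-0.55 ± 0.16, limma adjusted P = 0.114) and the calgranulin S100A9 (-0.85 ± 0.34, limma adjusted P = 0.357). The mean level of the 18 genes was 0.88, 1.63 and 2.35 in low RFI pigs (lowest, median and highest) and 1.48, 1.96 and 2.66 in high RFI pigs, so that the lines overlapped widely. LCN2 and LTF, proteins of the specific granules, had differences of 0.14 and -0.24, and MMP9, a gelatinase of another granule type, 0.08. Under the LF diet the median difference of the neutrophil genes was -0.01, with 0 at an unadjusted P-value under 0.05 (7.5% of all genes). For the difference between diets, 2 of the neutrophil genes had an unadjusted P-value under 0.05, against 241 of all 10099 genes.

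Of 21 T cell genes, 20 had a higher mean in low RFI pigs (median difference 0.19), 7 of them at an unadjusted P-value under 0.05, and none was DE. Over all genes 54.1% had a higher mean, 9.89% had an unadjusted P-value under 0.05 and 0.584% were DE, and the lists of this paragraph are to be read against these shares. The kinase LCK differed by 0.29 ± 0.07 (limma adjusted P = 0.0599) and CD27 by 0.30 ± 0.10 (limma adjusted P = 0.214). The mean level of the T cell genes was 0.88, 1.15 and 1.35 in low RFI pigs and 0.82, 0.94 and 1.24 in high RFI pigs. In the list of NK and cytotoxic lymphocyte genes EOMES was the only DE gene of 22, and the chemokine XCL1 differed by 0.70 (limma adjusted P = 0.0764). Of these 22 genes 12 had a higher and 10 a lower mean, with differences down to -0.48. Their median was 0.15, and -0.04 on scan day 2. B cell genes had a lower mean in 19 of 21 cases (median -0.15, and 0.05 on the scan day with 1 slide), 5 of them at an unadjusted P-value under 0.05, with MS4A1, which is CD20, at -0.39 ± 0.10 (limma adjusted P = 0.0509) and CD24 at -0.66 ± 0.18 (limma adjusted P = 0.106). Under the LF diet 19 of the 21 B cell genes were again lower (median -0.29, 14 at an unadjusted P-value under 0.05), and 18 of the 21 T cell genes were higher (median 0.11, 2 at that level), where 7.5% of all genes reached it. Of the erythroid genes 9 of 23 had a higher mean (median -0.01), against 18 of 23 under the LF diet (median 0.23, 7 at an unadjusted P-value under 0.05 and 1 DE). The embryonic globin HBE1 differed by -0.62 ± 0.27 (limma adjusted P = 0.406). In the monocyte and macrophage list LGALS3 was DE, and CD14, the co-receptor for lipopolysaccharide, differed by -0.77 (limma adjusted P = 0.0764). Part of the cell types in the differences of single genes was not tested.

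Ribosomal protein genes had small differences that were mostly in 1 direction. Of 77 cytosolic ribosomal protein genes, 72 had a higher mean in low RFI pigs, 25 of them at an unadjusted P-value under 0.05 (9.89% of all genes) and 3 at the adjusted threshold (0.584% of all genes). The median difference was 0.14, and it was 0.10, 0.10 and 0.33 within the 3 scan days. The mean level per pig was 5.49, 5.68 and 6.02 in low RFI pigs and 5.36, 5.54 and 5.72 in high RFI pigs. Mitochondrial ribosomal protein genes were higher in 55 of 62 cases (median 0.12), oxidative phosphorylation genes in 59 of 70 (median 0.09) and proteasome genes in 36 of 41 (median 0.07), with no DE gene in these 3 lists. MRPL15, NDUFC1 and PSME1, the members with the lowest P-values of each list, differed by 0.29 ± 0.08, 0.32 ± 0.08 and 0.16 ± 0.06. Over all genes, 54.1% had a higher mean in low RFI pigs. Under the LF diet the medians of the 4 lists were 0.04, 0.016, 0.02 and -0.003, against 0.02 over all genes.

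**Figure D4:**
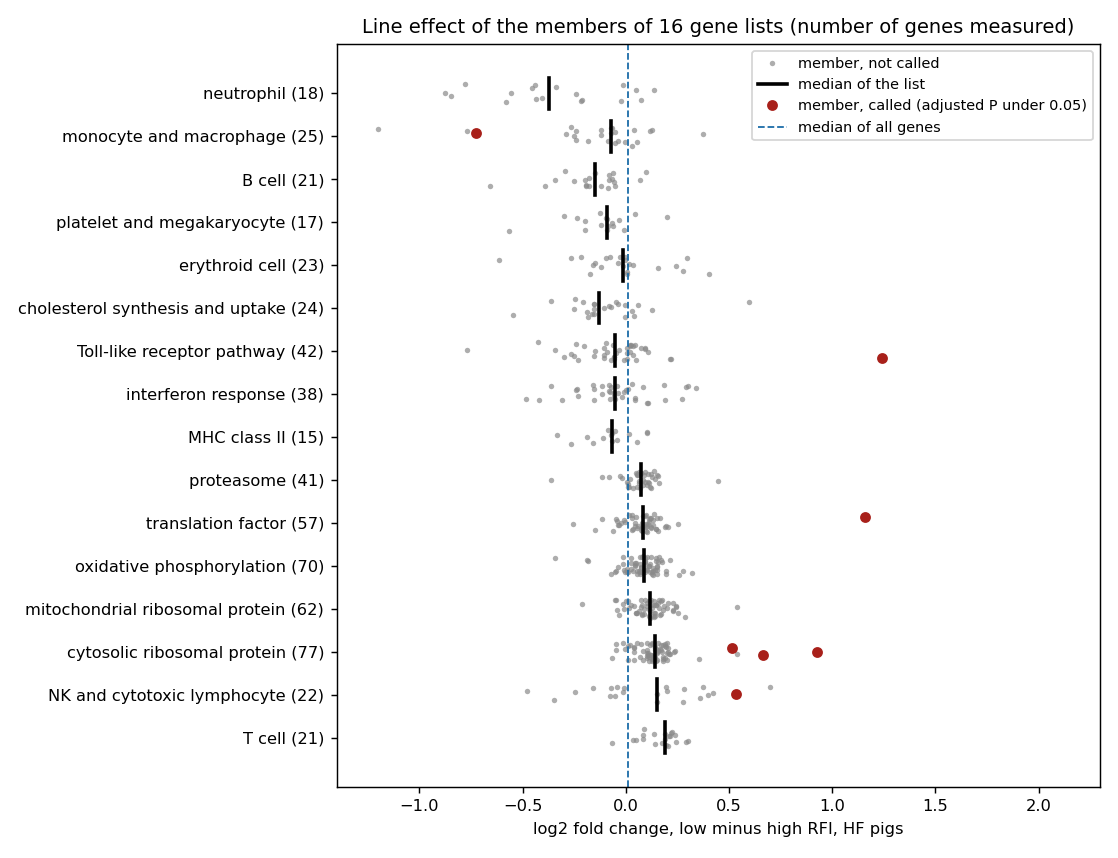
Difference between low and high RFI pigs fed the HF diet for each measured member of selected gene lists, as log2 fold change. Grey points are members that were not DE, red points are DE members, black bars are list medians and the dashed line is the median of all genes (0.01); the neutrophil list is shifted to the left (median -0.37) and the ribosomal protein and T cell lists slightly to the right (0.14 and 0.19).

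In lists of defense genes, 0 or 1 gene was DE, against 0.584% of all genes. In the Toll-like receptor pathway TRAF6 was DE among 42 genes, 24 had a lower mean in low RFI pigs, and 6 of the 8 genes at an unadjusted P-value under 0.05 (9.89% of all genes, 614 higher and 385 lower) were lower, such as TLR2 (-0.42). None of 48 cytokines and receptors or 28 chemokines and receptors was DE; LTB differed by 0.33 ± 0.08 (limma adjusted P = 0.0601), CCR1 by -0.62 ± 0.15 (limma adjusted P = 0.0503) and CCR9 by 0.36 ± 0.09 (limma adjusted P = 0.0671). Interferon response genes had a median of -0.05, with BST2, a membrane protein that retains enveloped viruses, at -0.24 ± 0.11 (limma adjusted P = 0.448). MHC class II genes had a median of -0.07 with 0 of 15 at an unadjusted P-value under 0.05. Of 20 genes of MHC class I and peptide loading, 10 had a higher and 10 a lower mean (median 0.001). The lowest of them, the class I gene SLA-5, differed by -0.62 ± 0.22 (limma adjusted P = 0.241).

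Among 24 genes of cholesterol synthesis and uptake, 19 had a lower mean in low RFI pigs (median -0.13), as had 4637 of all 10099 genes. Of the 24 genes, 10 were lower at an unadjusted P-value under 0.05, against 9.89% of all genes at that level in either direction. The cholesterol exporter ABCA1 had a higher mean (0.60, limma adjusted P = 0.275). HSD17B7, an enzyme of a late step of cholesterol synthesis, differed by -0.55 ± 0.17 (limma adjusted P = 0.15), and none of the list was DE. The median of the list lay between -0.189 and -0.065 over the alternative settings, apart from the column as deposited, and was 0.05 on the scan day with 1 slide. For fatty acid oxidation the median of 38 genes was 0.01, with the peroxisomal oxidase ACOX3 at 0.42 ± 0.10 (limma adjusted P = 0.0503) and ACSL4, which activates long-chain fatty acids, at -0.48 ± 0.13 (limma adjusted P = 0.104). In the antioxidant list the glutaredoxin GLRX was underexpressed (-0.60 ± 0.14, limma adjusted P = 0.0366), by 2 of its 5 probes. The medians of the heat shock, apoptosis and circadian clock lists were 0.017, 0.001 and 0.011, with no DE gene among the listed ones. HSP70.2, a heat shock protein gene that the list does not hold, was overexpressed (0.38 ± 0.09, limma adjusted P = 0.0383), as was DNAJB13, also outside the list; HSP70.2 was chosen after its value was seen.

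The line effect was then set beside that of the 24 pigs fed the LF diet, which are other animals. Of the 59 genes that were DE under the HF diet, 57 differed in the same direction under the LF diet, compared with 52.0% of all genes, and the exceptions were LGALS3 and LOC100738479. Under the LF diet 27 genes were DE (0.267%), 14 of which were among the 59 genes, 7 overexpressed and 7 underexpressed. Examples are PARVG (-0.97 ± 0.10 under the LF diet), SERPINF1 (-1.51 ± 0.26), EIF1B (1.54 ± 0.15) and ARID3B (0.54 ± 0.07). The median size of the difference over the 59 genes was 0.55 under the HF diet, on which they were chosen, and 0.37 in the same direction under the LF diet. Across all genes, the differences under both diets correlated with a Pearson r of 0.34 and a Spearman rho of 0.07, where genes are not independent and the pigs of both diets shared the 6 slides.

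**Figure D5:**
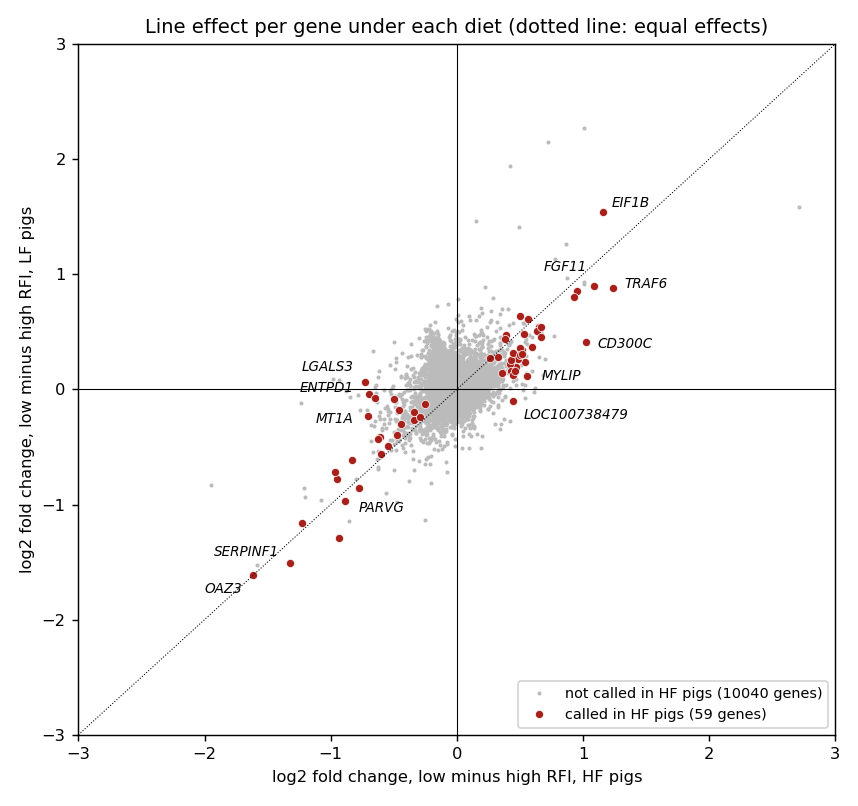
Difference between low and high RFI pigs under the HF diet (x axis) and under the LF diet (y axis) for each of 10099 genes, both as log2 fold change. Red points are the 59 genes that were DE under the HF diet, grey points the other genes and the dotted line marks equal differences; OAZ3, SERPINF1, PARVG and EIF1B lie along that line, whereas LGALS3, ENTPD1, MYLIP and LOC100738479 lie near 0 on the y axis.

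No gene had an adjusted P-value under 0.05 for the difference of the line effects between diets (limma, 241 genes at an unadjusted P-value under 0.05 and 0 adjusted under each other setting tried). Among the 59 DE genes, 11 had an unadjusted P-value under 0.05, against 241 of all 10099 genes. The HF values that selected the 59 genes also enter this test, so that their larger share is no evidence for an effect of diet. The calls of the 59 genes were not all equally firm. Their direction was the same on all 3 scan days in 58 genes, WDR36 being the exception (41.6% of all genes), and on all 6 slides in 54 genes (9.69% of all genes), on the same arrays that selected them. When each pig was left out in turn, 22 of the 34 named DE genes kept their call in all 24 fits. That of OAZ3 was kept in only 5 fits (adjusted P up to 0.0855), C4H8ORF37 in 6, C5ORF23 in 7, CCDC80 in 8, GLRX in 10, CHML and LOC100738479 in 11, SERPINF1 in 16, STEAP4 in 17, KCNQ3 and EOMES in 18 and PLVAP in 22. Of the 13 alternative settings, C4H8ORF37 kept its call under 6, GLRX under 7, KCNQ3 and CHML under 9 and LOC100738479 under 10. With the replicate block the adjusted P-values (limma) of KCNQ3, CHML, GLRX and C4H8ORF37 were 0.0792, 0.0549, 0.0725 and 0.118. With slide as a block, those of C4H8ORF37 and LOC100738479 were 0.0584 and 0.0575, and with scan day as a block that of C4H8ORF37 was 0.0558.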

How the data were processed

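Per spot, the scanner files that the authors deposited give an intensity and quality flags. Normalized log2 values of 37113 retained spots were deposited as 1 table, made by the authors in R 3.0.2 according to the submitters' processing notes. On 47 arrays the deposited log2 values equalled log2 median intensity minus the array median, within 1e-06, with no background subtraction. For high RFI HF replicate 1, the table repeats 1 value in 37090 rows, and was rebuilt with the same arithmetic from its scanner file. Of the readings of retained spots in HF pigs 99.0% were well above background, none was saturated, and the median intensity was 7.16 to 15.97 times the median background; the number of arrays limits the precision.

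Symbols came from accessions or gene names in the array files, matched to a RefSeq table of Sscrofa11.1, whose coordinates were not used since the files name no build. They were found for 20077 probes and 10099 genes; 17020 probes had none and 16 had conflicting names. A gene value was the mean of its probes. Of the retained probes 2716 share all 60 bases with another.

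Low and high RFI HF pigs were compared with limma 3.58.1 (lmFit, eBayes) in R 4.3.3, with Benjamini-Hochberg correction over all genes or probes and a call at an adjusted P-value under 0.05; the LF pigs were fitted alike, and the difference between diets as an interaction over 48 pigs. Other steps used Python 3.11.15, pandas 2.3.3 and matplotlib 3.10.9. The pigs are separate animals. In simulated data with 100 genes changed by 0.5 and 100 by 1 (log2) for this comparison over 10099 genes, 78% and 94% were recovered, with 6 false calls in all.

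Named genes are the 15 DE genes with the largest difference in each direction, the 8 qPCR genes, in each of 32 gene lists the 3 DE members (or, with none, 2 members) with the lowest P-values, the 5 genes with the lowest P for the difference between diets, and the 3 DE probes without symbol in each direction; others were chosen after their values were seen, and a few named by this rule are not reported here. The comparison and the lists were chosen with earlier results of these data known. Alternatives were another signal, normalization, probe filter, prior, block (slide, scan day, replicate number), the 4-group fit, analysis of variance, the brightest probe, the column as deposited and each pig left out; gene names without the accessions inside probe names were added after the data were seen. Same-numbered pigs of the lines, which share a slide, deviated together in part (correlations from -0.53 to 0.72, 6 of 12 over 0.1, and 7 of 24 pigs most correlated with their own number). The main fit did not take numbers as pairs and so ignores this shared part. With the replicate block, which allows for it, 55 genes were DE, 42 of them among the 59.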

Additional observations from a re-analysis of the deposited data

Results flagged for a closer look

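Among all genes 20 (0.198%) had an unadjusted P-value under 0.01 for the difference of the line effect between diets. The following named results had an unadjusted P-value under 0.01 for the difference of the line effect between the HF and LF diets, the adjusted P-value being 0.876 for each gene, so that none passed the correction. LGALS3 had a difference of line effects of -0.80 ± 0.26 on the log2 scale (HF minus LF, P = 0.00375), from -0.73 under the HF diet and 0.07 under the LF diet. MYLIP differed by 0.44 ± 0.15 (P = 0.00481), from 0.56 and 0.12. LOC100738479, whose product is not described in the files, differed by 0.54 ± 0.15 (P = 0.0008), from 0.44 and -0.10. SLC4A1, the band 3 anion exchanger of red cells, differed by -0.48 ± 0.15 (P = 0.00204), from 0.01 under the HF diet and 0.50 under the LF diet. STAP1, an adaptor of B cell receptor signaling, differed by 0.48 ± 0.16 (P = 0.00325), from 0.10 and -0.39, and EDARADD, an adaptor of the ectodysplasin receptor, by -0.56 ± 0.18 (P = 0.00372), from 0.03 and 0.59. The probe A_72_P010271, which has no gene symbol, differed by 1.32 (P = 0.000719, adjusted P = 0.902), from 1.55 and 0.24. No technical or biological cause of these differences was tested.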

How the results depend on the processing

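The main count of 59 DE genes was 108 with 1 fit over the 4 groups and 4 when the repeated value of 1 high RFI pig (replicate 1) was kept as deposited, which moved the median of all genes to -0.19, and it lay between 46 and 76 under the other settings. It was 55 with the replicate block, of which 42 were among the 59, and 40 to 72 with 1 pig left out. For probes the count of 221 became 140 by 2-group analysis of variance, 16 with the column as deposited and 139 to 244 with 1 pig left out. The smallest of these were 139, 144 and 145, without high RFI HF replicate 8, high RFI HF replicate 12 and low RFI HF replicate 10. At the criterion of the study, 1190 probes became 339 with the column as deposited and 986 to 1368 with 1 pig left out. Under the LF diet the count of 27 genes became 41 with slide as a block, 41 with the background-corrected signal on the 75th percentile and 48 with normexp and quantile normalization. Gene names without the accessions in probe names, chosen after seeing the data, gave 61 genes. With the background-corrected signal on the 75th percentile the differences of BST1, KCNQ3, MT1A, CCDC80 and C4H8ORF37 were -1.49, -1.18, -1.10, -1.21 and 0.95, over 1.5 times their main values, and with all non-control probes that of CYP1A2 was 0.40. BST1, KCNQ3, MT1A, CCDC80, C4H8ORF37 and HTRA1 had levels below the array median in every HF pig. The main values hold no background subtraction, and the median intensity of the HF arrays was 7.16 to 15.97 times the median background. By 2-group analysis of variance 44 probes were lower and 96 higher. WFDC2 turned to -0.031 with its brightest probe alone. For the changes between settings that are not explained by their own construction the cause was not tested. Many calls lie near the threshold, with 8 genes at an adjusted P-value from 0.04 to 0.05 and 25 from 0.05 to 0.06, and without high RFI HF replicate 8 or high RFI HF replicate 12 PLVAP was not DE (adjusted P up to 0.0522). Apart from the column as deposited, 17 of the 34 named DE genes kept their call under every setting tried and without each of the 24 pigs. Of the 53 named genes that were not DE, 14 passed under some setting. Apart from the column as deposited, the median of the neutrophil list stayed between -0.43 and -0.32, that of the T cell list between 0.18 and 0.21 and that of the cytosolic ribosomal protein list between 0.11 and 0.14. With 12 pigs per line and a median SD of 0.23 between pigs of a line, small differences were often not detectable.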

Other observations

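The largest difference of all in pigs fed the HF diet was at a gene that was not DE. LOC100519082, measured by 1 probe, differed by 2.71 on the log2 scale (adjusted P = 0.0764), with SDs of 2.62 in low RFI pigs and 0.28 in high RFI pigs. PCP4, a calmodulin-binding protein of neurons, differed by -1.95 (adjusted P = 0.106) and CHIT1, the chitinase of macrophages, by -1.20 (adjusted P = 0.0509). These genes were chosen after their values were seen.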
